A study of Homo sapiens with 24 samples.

Results

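The effect of combined TFEB and TFE3 knockdown was measured in HepG2 cells whose KEAP1 gene had been targeted by CRISPR/Cas9. The comparison used the 16 libraries, of 24 in all, that carried a KEAP1 guide. Of these, 8 received siRNAs against TFEB and TFE3 (siTFEB/siTFE3) and 8 received a non-targeting siRNA pool (siNC), with 4 libraries for each of the guides sgKEAP1-1 and sgKEAP1-2 on either side. The guide was kept as a factor, so that the knockdown effect was averaged over both guides. The table listed 12009 human gene IDs, and 10948 of 11927 features passed a filter on low counts and were tested.

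HepG2 is an established human liver cancer line. All 16 cultures had been transduced with the lentiviral lentiCRISPRv2 vector and selected with puromycin, and no isolation of single clones was described, so cells with different edits could have been present together. The remaining 8 libraries, named sgCtrl, carried a guide against the AAVS1 safe-harbour locus and had received the same siRNAs. RNA was taken 72 hours after transfection. Libraries were made with a QuantSeq kit, which counts reads at the end of polyadenylated transcripts, so a KEAP1 edit need not change the KEAP1 count.

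TFEB and TFE3 are transcription factors of the MiT/TFE family, together with MITF and TFEC. When nutrients are plentiful, Rag GTPases at the lysosome recruit them to the kinase complex mTORC1, whose phosphorylation holds them in the cytosol, and the folliculin complex (FLCN with FNIP1 or FNIP2) is needed for that recruitment. When they reach the nucleus they bind E-box motifs in the promoters of genes for lysosomal enzymes, the lysosomal proton pump, autophagy proteins and their own regulators. KEAP1 is the adaptor that directs the transcription factor NRF2 (gene NFE2L2) to degradation, and NRF2 drives antioxidant and detoxification genes. The comparison asked how loss of TFEB and TFE3 alters transcripts once KEAP1 has been targeted.

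Total reads of the 16 libraries ranged from 3527000 to 4600951, and 11693 to 11849 genes had at least 1 read. Hepatocyte markers were all present (8 of 8 listed), with a summed level of 14974 to 17360 CPM (counts scaled to a common library size) under siNC and 12831 to 19276 CPM after knockdown. None of 7 endothelial markers was in the table, and of 9 fibroblast and stellate cell markers only COL1A1, PDGFRB and ACTA2 were, with summed levels of 51.1 to 71.4 CPM and 60.5 to 88.2 CPM. Of 8 leukocyte markers 4 were present and PTPRC was absent; their sum, 953 to 1918 CPM under siNC and 1000 to 1614 CPM after knockdown, was almost all LYZ, with a median of 1504 and 1368 CPM. In such bulk RNA, fewer cells of a type and less RNA per cell cannot be told apart.

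Of the 16 libraries, 3 differed from the rest. The first principal component, with 24.3% of the variance, placed siNC sgKEAP1-1 replicate 1 at -54.9 and siTFEB/siTFE3 sgKEAP1-2 replicate 1 at -40.4, and the other 14 between -2.13 and 13.1, so that each siRNA and each guide had 1 of them. The knockdown library of this pair also held 4.42% of its reads in MTRNR2L8, a gene with near-identical copies, against 0.375% to 1.17% in the others. The third, siTFEB/siTFE3 sgKEAP1-2 replicate 2, held transcripts of plasma cells: ITGB7 at 523 CPM, JCHAIN at 327 CPM and MZB1 at 45.3 CPM, and GSTP1 at 254 CPM. A list of 18 plasma cell and B lineage markers, chosen after these values were seen, had 12 in the table. CD79A, CD79B, FCRL5, CD38, PTPRC and DERL3 were absent from it. The summed level of the 12 was 1368 CPM in this library, 27.7 to 86.8 CPM under siNC and 21.7 to 158 CPM in the other 7 knockdown libraries. In this library TNFRSF17 (11.3 CPM) and IRF4 (8.86 CPM) were low. Whether plasma cells were the source was not tested. The defining marker JCHAIN was at 0 in 7 of 8 siNC libraries and in 4 of 8 knockdown libraries.

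Without this library the count of called genes was 109, all 165 genes called with it kept their direction and 99 of them their call. The smallest ratio of the change without it to the change with it was 0.802, for CCND2. The part of the MTRNR2L8 share and of the other markers in the results was not tested.

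Knockdown lowered both targeted genes with either KEAP1 guide. TFEB had 7.59, 10.9 and 13.7 CPM (lowest, median and highest of 8 libraries) under siNC and 1.41, 3.41 and 4.43 CPM in the 8 siTFEB/siTFE3 libraries, and the groups did not overlap. The fitted log2 fold change was -1.90 ± 0.24 (SE, 16 libraries; limma-voom, adjusted p = 0.00039). TFE3 had 34.0, 52.7 and 75.6 CPM under siNC and 10.7, 15.5 and 19.2 CPM after knockdown, again without overlap (log2 fold change -1.71 ± 0.17, adjusted p = 1.9e-05). By group, TFEB averaged 11.9 ± 2.11 CPM (SD, n = 4) under siNC and 2.88 ± 1.27 CPM after knockdown with sgKEAP1-1, and 10.5 ± 2.51 and 3.39 ± 1.23 CPM with sgKEAP1-2. The related factor MITF was too low to be tested, with a median of 0.64 CPM under siNC and 0.503 CPM after knockdown, and no TFEC row was used. KEAP1 (65.6 and 66.6 CPM) and NFE2L2 (183 and 183 CPM) had near equal medians. KEAP1 had a difference of 0.03 ± 0.08 on the log2 scale (adjusted p = 0.925) and NFE2L2 by 0.07 ± 0.10 (adjusted p = 0.86), neither of which passed the test.

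Across the tested genes 114 fell (1.04% of 10948 tested) and 51 rose (0.466%), 165 in all (1.51%), in limma-voom with Benjamini-Hochberg adjustment at 0.05. A further measure of the same fit was the count at an unadjusted p under 0.05, which was 1321 genes (12.1%). Most changes were small: 27 called genes changed by 1 or more on the log2 scale (19 lower, 8 higher) and 78 were under 0.5. The 8 knockdown libraries lay entirely below the 8 siNC libraries for 38 genes (0.347%) and entirely above them for 13 genes (0.119%), and 47 of these 51 were among the called genes. When same-numbered libraries were blocked together, since the labels give each number a prefix of its own, written like a date, 228 genes were called (143 lower, 85 higher), 158 of them among the 165. In fits that left out 1 library in turn, 81 of the 165 were called in all 16, and none changed sign. Without the 2 libraries numbered 1 that stood apart, 335 genes were called (199 lower, 136 higher), 159 of them among the 165, and without those 2 and the library with plasma cell transcripts the count was 266 (160 lower, 106 higher).

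**Figure D1:**
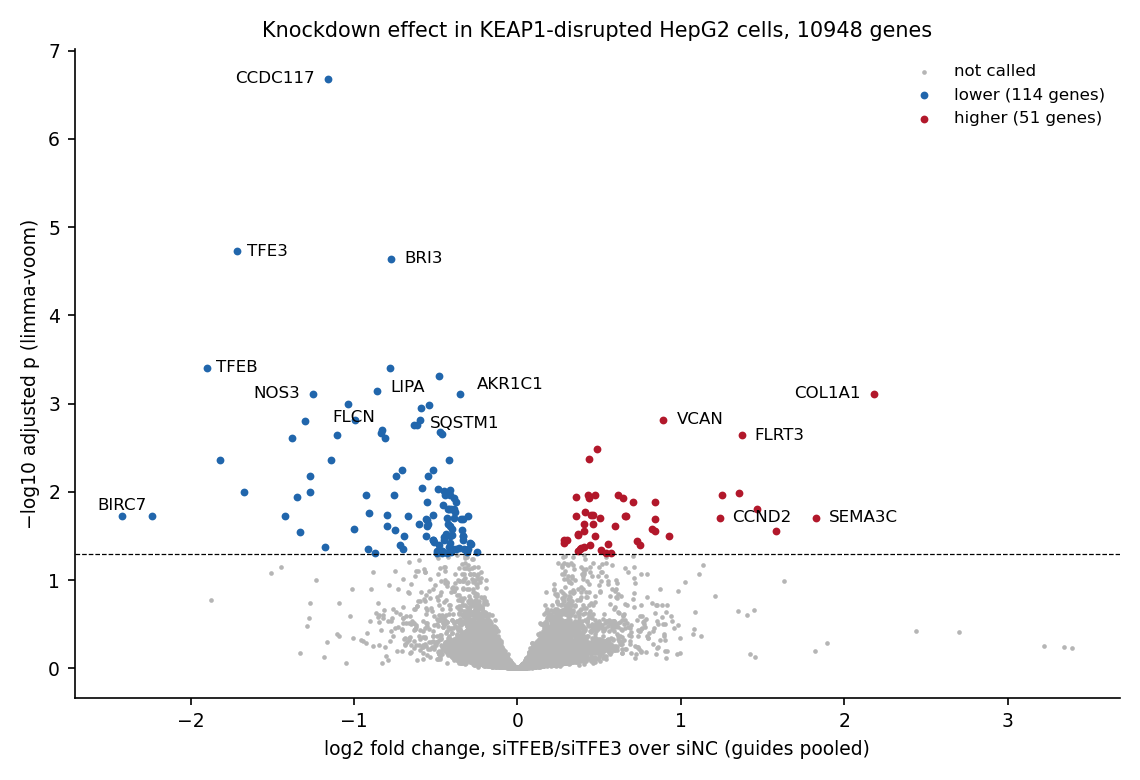
Log2 fold change (siTFEB/siTFE3 over siNC, guides pooled; horizontal) against −log10 of the limma-voom adjusted p (vertical) for 10948 genes, with the dashed line at 0.05. The 114 lower genes (blue) include TFEB, TFE3 and CCDC117, which has the smallest p, and COL1A1 leads the 51 higher genes (red).

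The genes that fell most, after TFEB and TFE3 and at a mean of at least 10 counts, were MYO15B (-1.82 ± 0.31, adjusted p = 0.0044), TIE1 (-1.67), TRIM50 (-1.42), SP140 (-1.38), TAMALIN (-1.35), SPN (-1.33), NDRG4 (-1.30), SH2D5 (-1.27), SLC6A2 (-1.27) and NOS3 (-1.25 ± 0.17, adjusted p = 0.00077). Several have known roles outside the lysosome: NOS3 is the endothelial nitric oxide synthase, SLC6A2 the noradrenaline transporter, TIE1 an endothelial receptor tyrosine kinase and SPN the leukocyte sialoglycoprotein CD43. NOS3 had 29.6, 45.6 and 62.4 CPM under siNC and 10.8, 19.4 and 24.99 CPM after knockdown, with no overlap. NDRG4 had 19.9, 34.7 and 69.7 CPM against 11.1, 15.8 and 22.7 CPM, and overlapped only through siNC sgKEAP1-1 replicate 1, 1 of the libraries that stood apart. TIE1 and SPN stood at medians of 6.62 and 3.85 CPM under siNC, while the endothelial markers and PTPRC were absent from the table. MYO15B was also low, at 0.984 to 1.86 CPM in the siTFEB/siTFE3 sgKEAP1-2 libraries. The call of SPN held in 9 of 16 fits that left out a library (adjusted p up to 0.0764, without siTFEB/siTFE3 sgKEAP1-1 replicate 4), but not with all 24 libraries (0.065), and that of TRIM50 in 15 (0.0535 without siTFEB/siTFE3 sgKEAP1-2 replicate 3).

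The smallest p of all belonged to CCDC117, a gene outside the lists that is named after its values were seen. It had 63.2, 64.9 and 72.3 CPM under siNC and 23.9, 28.8 and 36.8 CPM after knockdown, so that the lowest siNC library was well above the highest knockdown library. Its log2 fold change was -1.16 ± 0.09 (adjusted p = 2.1e-07), and it was called with sgKEAP1-1 alone (adjusted p = 0.00012), with sgKEAP1-2 alone (adjusted p = 0.00027) and in sgCtrl cells (-1.04, adjusted p = 0.0031).

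Genes for the feedback and direct targets of the family had the lowest median of any list other than the factors themselves. Of 17 listed genes 13 were tested, 5 fell (38.5%, against 1.04% of all tested genes) and none rose. All 13 had a negative log2 fold change, and their median was -0.37, against 46.1% negative and a median of 0.02 over all tested genes. The lists, here and below, were chosen with earlier results of these data known. Their shares therefore describe the members and are not a test. FLCN, the folliculin that licenses mTORC1 recruitment of TFEB, had 23.7, 37.7 and 62.2 CPM under siNC and 16.1, 19.2 and 22.4 CPM after knockdown. These did not overlap, and the log2 fold change was -1.04 ± 0.15 (adjusted p = 0.0010). Its partner FNIP1 (-0.56 ± 0.13, adjusted p = 0.032) had 32.7, 41.4 and 47.9 CPM against 21.4, 26.3 and 47.6 CPM, and overlapped through 1 knockdown library at 47.6 CPM, sgKEAP1-2 replicate 1, which stood apart. FNIP2 (-0.34 ± 0.08, adjusted p = 0.027) had 51.1, 53.7 and 62.1 CPM against 36.7, 43.0 and 50.1 CPM, without overlap. PPARGC1A, the coactivator of mitochondrial and gluconeogenic genes, fell by 0.91 on the log2 scale (adjusted p = 0.018; 15.2 to 8.14 CPM at the median). The autophagy receptor SQSTM1 had 564, 714 and 947 CPM against 383, 459 and 615 CPM (-0.64 ± 0.10, adjusted p = 0.0018). The calls of FLCN, PPARGC1A and SQSTM1 held in all 16 fits without a library. Those of FNIP1 held in 8 (adjusted p up to 0.0744, without siTFEB/siTFE3 sgKEAP1-1 replicate 2) and of FNIP2 in 10 (0.0664 without siTFEB/siTFE3 sgKEAP1-1 replicate 3). FNIP1 was also lost with edgeR (adjusted p = 0.061) and FNIP2 without the 3 libraries that stood apart (0.073).

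Among the 8 tested targets that were not called, RRAGC, which encodes a Rag GTPase, had 13.1 and 5.44 CPM at the median (-0.82, adjusted p = 0.25), AMDHD2 -0.50, UVRAG -0.32 and WIPI1 -0.22. RRAGD and MCOLN1 were below the filter. In the wider list of nutrient sensing regulators, 24 genes were tested and the 3 that fell (12.5%, against 1.04% of all tested genes) were FLCN, FNIP1 and FNIP2. The mTORC1 components MTOR (-0.02) and RPTOR (-0.01) and the Ragulator subunits LAMTOR4 (-0.03) and LAMTOR5 (0.04) lay near 0, all with an adjusted p of at least 0.88.

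Lysosomal genes were divided by role. Over the 3 lists of hydrolases, membrane proteins and the proton pump, 104 of 125 genes were tested, of which 7 fell (6.73%, against 1.04% of all tested genes) and none rose. The median log2 fold change was -0.09 and 74 of the 104 (71.2%) were negative, against 0.02 and 46.1% over all tested genes. Without the 2 libraries that stood apart 10 fell, in a fit that called 199 of all 11039 tested genes lower. Leaving out single libraries gave between 4 and 9.

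Of 44 tested hydrolases and their activators 5 fell (11.4%, against 1.04% of all tested genes). LIPA, the acid lipase that frees cholesterol from lipoproteins, had 34.5, 53.4 and 57.2 CPM under siNC and 22.0, 28.2 and 31.7 CPM after knockdown, with no overlap (-0.86 ± 0.12, adjusted p = 0.00073). ASAH1, acid ceramidase, had 83.3, 99.3 and 111 CPM against 59.1, 65.5 and 73.0 CPM, also without overlap (-0.54 ± 0.08, adjusted p = 0.0010). The cysteine protease CTSB was the most abundant of the 5, at 627, 925 and 1220 CPM against 455, 637 and 738 CPM (-0.55 ± 0.12, adjusted p = 0.024). TPP1, a tripeptidyl peptidase, fell by 0.41 (adjusted p = 0.015; 107 to 80.2 CPM at the median), and CTSD, the aspartic protease cathepsin D, fell by 0.29 (adjusted p = 0.039; 357 to 302 CPM). LIPA, ASAH1 and TPP1 were called in all 16 fits without a library, CTSB in 14 (adjusted p up to 0.0641) and CTSD in 5 (up to 0.0938), in both cases highest without siNC sgKEAP1-2 replicate 3. PPT1 had a value of similar size that did not pass (-0.53, adjusted p = 0.098). At the other end LGMN had 0.35 (adjusted p = 0.58) and CTSV 0.25 (adjusted p = 0.81).

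Membrane proteins, transporters and sorting factors had 2 of 43 tested genes called (4.65%, against 1.51% of all tested genes), both lower. NPC2, the soluble cholesterol carrier that hands its cargo to NPC1, had 178, 213 and 250 CPM under siNC and 131, 157 and 181 CPM after knockdown (-0.41 ± 0.08, adjusted p = 0.011), and the groups overlapped narrowly. GLMP, which stabilises a lysosomal membrane transporter, had 59.8, 64.8 and 84.3 CPM against 35.6, 52.2 and 57.7 CPM (-0.41 ± 0.10, adjusted p = 0.032); its call held in 8 of 16 fits without a library (up to 0.0828, without siNC sgKEAP1-2 replicate 3). The abundant membrane proteins LAMP1 (-0.16, adjusted p = 0.36), LAMP2 (-0.17, adjusted p = 0.56) and CD63 (-0.21, adjusted p = 0.45) did not pass.

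None of the 17 tested subunits of the proton pump, which acidifies the lysosome, passed the threshold. Of the 17 values 16 were negative (94.1%, against 46.1% of all tested genes), with a median of -0.12 against 0.02. At an unadjusted p under 0.05, 7 of the 17 were lower and 1 higher, against 693 lower and 628 higher of 10948 tested genes. The largest negative values were ATP6V1H (-0.30, adjusted p = 0.30; 42.2 to 32.8 CPM), ATP6V1C1 (-0.28, adjusted p = 0.23) and ATP6V1E1 (-0.24, adjusted p = 0.22), and the accessory subunit ATP6AP2 was the positive exception at 0.17.

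**Figure D2:**
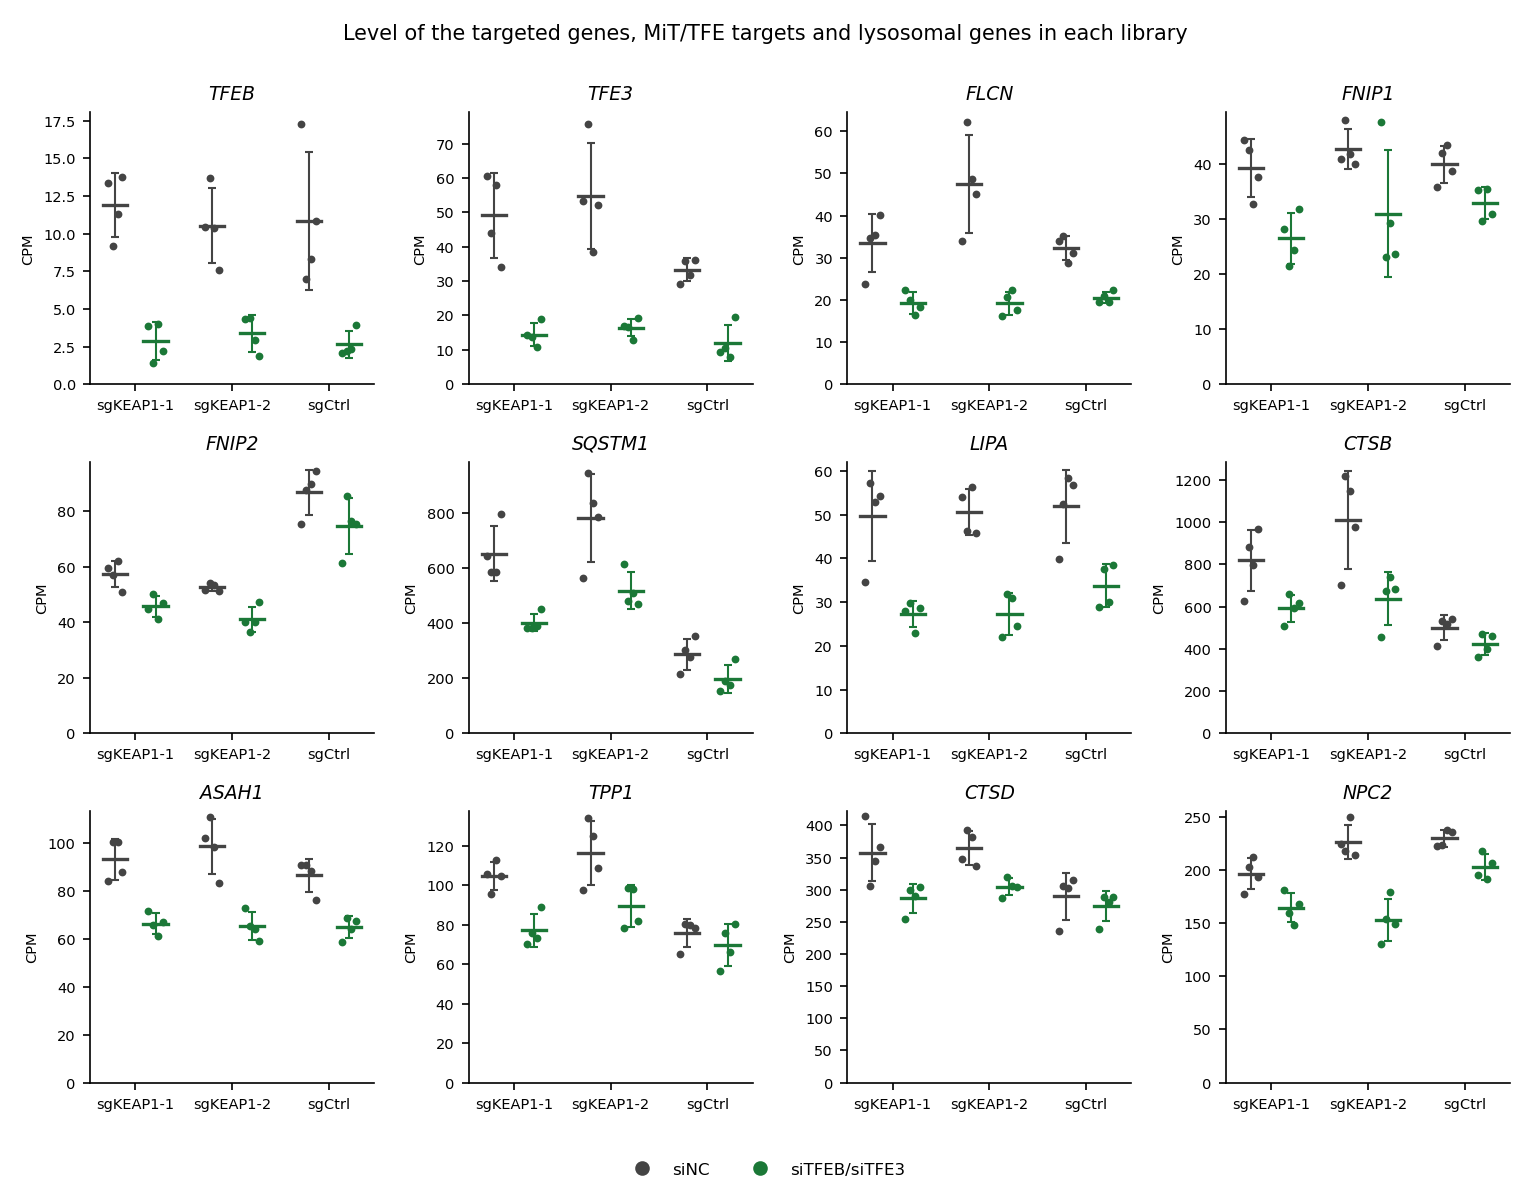
Level in CPM (vertical, from 0) of 12 genes in each library, by guide (horizontal), under siNC (grey) and siTFEB/siTFE3 (green); bars are the mean and SD of 4 libraries. TFEB, TFE3, FLCN, FNIP2, LIPA and ASAH1 show no overlap between siRNAs with the KEAP1 guides, while SQSTM1, CTSB and TPP1 start lower in sgCtrl cells.

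Autophagy genes had 2 of 43 tested members called (4.65%, against 1.51% of all tested genes), both lower: SQSTM1 and the late endosomal GTPase RAB7A (164, 180 and 196 CPM against 115, 154 and 159 CPM; -0.30 ± 0.07, adjusted p = 0.045). RAB7A was called in 3 of 16 fits without a library (adjusted p up to 0.111, without siNC sgKEAP1-2 replicate 3). It was also the sole member called among 42 vesicle trafficking genes (2.38%, against 1.51% of all tested genes). The ubiquitin-like protein MAP1LC3B had -0.11 (adjusted p = 0.76) and the scaffold ATG13 -0.16 (adjusted p = 0.35). The list median was -0.03.

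Both core E-box variants were looked for in RefSeq promoter windows (GRCh38.p14, from 250 bases before to 50 bases after the gene start). The windows below are those of 6 genes of the gene lists, and of BRI3, that fell with knockdown and hold CACGTG, or TCATGTGA on either strand, before the start. They are shown because the siRNAs target factors that bind such motifs. Each is a stretch of 60 bases, written along the strand of the gene, with the motif in capitals.
FNIP1, chr5:131797079-131797138, minus strand: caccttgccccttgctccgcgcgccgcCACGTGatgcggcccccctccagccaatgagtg
PPARGC1A, chr4:24472996-24473055, minus strand: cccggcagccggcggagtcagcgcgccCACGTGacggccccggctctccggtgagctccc
CTSD, chr11:1763942-1764001, minus strand: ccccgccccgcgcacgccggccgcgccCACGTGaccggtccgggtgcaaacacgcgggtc
BRI3, chr7:98281572-98281631, plus strand: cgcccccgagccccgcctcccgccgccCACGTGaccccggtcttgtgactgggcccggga
FNIP2, chr4:158805670-158805729, plus strand: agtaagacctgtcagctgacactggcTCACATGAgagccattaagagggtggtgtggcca
GLMP, chr1:156295680-156295739, minus strand: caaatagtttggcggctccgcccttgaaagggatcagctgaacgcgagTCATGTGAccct
TPP1, chr11:6619423-6619482, minus strand: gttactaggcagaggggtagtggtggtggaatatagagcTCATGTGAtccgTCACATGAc

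Of the 114 genes that fell, 91 had a promoter window, and 15 of them (16.5%) held CACGTG. The same motif was in 12.8% of the windows of all tested genes, in 2 of 41 windows (4.88%) of the genes that rose, and in 7.26% of all windows in the reference. The longer palindrome TCACGTGA, which contains CACGTG, was in 2 windows (2.2%) of the genes that fell and in 2.48% of tested genes. TCATGTGA, read on both strands, was in 6 windows (6.59%) of the genes that fell, against 1.24% of tested genes, 1.0% of all windows and 0 of 41 windows of the genes that rose. Of the genes with the smallest p, BRI3 held CACGTG. No match before the gene start was found for CCDC117, TFE3 and TFEB, nor for LIPA, FLCN and SQSTM1. A gene without a promoter window would also show no match. The matches are a description of sequence, and no binding was measured.

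Among NRF2 targets 2 of 39 tested genes fell (5.13%, against 1.04% of all tested genes) and none rose, with a median of -0.02. With the replicate block 4 members were called, in a fit that called 143 lower and 85 higher of 10948 tested genes. AKR1C1, an aldo-keto reductase whose near-identical family members make its count uncertain, had 3914, 4578 and 5516 CPM under siNC and 3038, 3597 and 4311 CPM after knockdown (-0.35 ± 0.05, adjusted p = 0.00077). The other was SQSTM1, which belongs to both lists. The glutathione synthesis subunit GCLC (-0.02, adjusted p = 0.95), PRDX1 (-0.03, adjusted p = 0.93) and GSR (-0.10, adjusted p = 0.77) stayed near 0, and the ferritin light chain FTL had -0.25 (adjusted p = 0.090; 7013 to 5843 CPM). GSTP1 had the widest value of the list, 3.22 ± 1.92 (adjusted p = 0.55), with 0 reads at the siNC median and 254 CPM in the library that held plasma cell transcripts.

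Of 32 tested plasma protein genes 3 fell (9.38%, against 1.04% of all tested genes; 5 were called with the replicate block): APOA2, an apolipoprotein of high-density lipoprotein (5631, 6615 and 9153 CPM against 4766, 4935 and 5800 CPM; -0.41 ± 0.08, adjusted p = 0.0096), TTR, the thyroxine carrier (-0.43 ± 0.09, adjusted p = 0.023), and RBP4, the retinol carrier (-0.25 ± 0.06, adjusted p = 0.048). TTR was called in 15 of 16 fits without a library (0.0543 without siTFEB/siTFE3 sgKEAP1-2 replicate 2) and RBP4 in 5 (up to 0.113, without siNC sgKEAP1-2 replicate 3). With all 24 libraries in the fit neither was called (adjusted p = 0.19 for TTR and 0.067 for RBP4), and RBP4 was also lost without the 3 libraries that stood apart (0.065). ALB (-0.10, adjusted p = 0.66) and AFP (-0.08, adjusted p = 0.91) were not called. The fit with the replicate block, which called 5 members, called 143 lower and 85 higher of all 10948 tested genes. Of 16 tested hepatocyte transcription factors 1 fell (6.25%, against 1.04% of all tested genes). This was NR0B2, the bile acid responsive repressor SHP (90.6, 110 and 146 CPM against 67.4, 77.4 and 84.9 CPM; -0.55 ± 0.10, adjusted p = 0.0067), with no overlap. It was not called with all 24 libraries in the fit (adjusted p = 0.071). HNF4A had -0.29 (adjusted p = 0.17) and CEBPA -0.19 (adjusted p = 0.45).

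Few members of the metabolic lists passed the test. DHCR7, which encodes the last step of cholesterol synthesis, was the single member called among 22 cholesterol genes (4.55%, against 1.51% of all tested genes). It had 58.5, 70.8 and 86.7 CPM against 40.3, 44.8 and 59.7 CPM (-0.60 ± 0.09, adjusted p = 0.0015). ENO2, a glycolytic enolase, was the single member called among 21 glycolysis and gluconeogenesis genes (4.76%, against the same 1.51%). Its change was -0.52 ± 0.12 (adjusted p = 0.036, called in 8 of 16 fits without a library, up to 0.0916 without siNC sgKEAP1-2 replicate 3). No member was called among 22 fatty acid and triglyceride synthesis, 29 fatty acid oxidation, 36 cell cycle, 18 interferon or 32 ATF4 and endoplasmic reticulum stress genes in limma-voom. In these lists 2, 4, 5, 2 and 4 members had an unadjusted p under 0.05, which 12.1% of all tested genes had. Without the 2 libraries that stood apart, 3 fatty acid and triglyceride synthesis genes and 1 ATF4 and stress gene were called lower, 1 cell cycle gene was called higher, and the other 2 lists still had none. That fit called 199 lower and 136 higher of all 11039 tested genes, so 1 call in a list of 32 or 36 is near the general share.

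**Figure D3:**
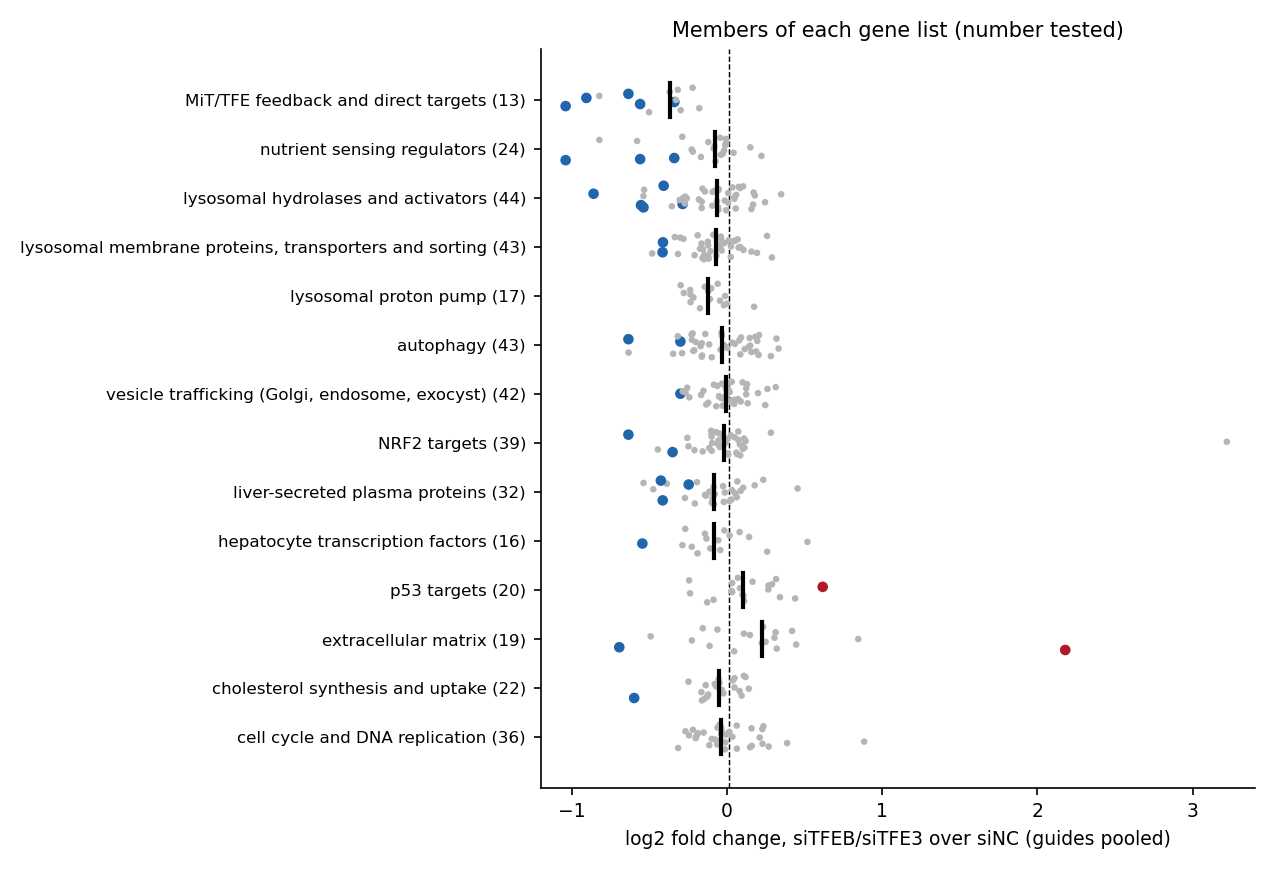
Log2 fold change (horizontal) of each tested member of 14 gene lists (vertical, with the number tested); blue and red points passed the threshold, grey points did not, the black bar is the list's median and the dashed line the median of all tested genes. The feedback targets lie wholly left of the line, the 16 negative proton pump subunits are grey, and COL1A1 is the red point at 2.18.

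Among the genes that rose, COL1A1, the main chain of fibrillar collagen, changed most. It had 2.02, 3.31 and 7.50 CPM under siNC and 9.59, 16.1 and 25.9 CPM after knockdown (log2 fold change 2.18 ± 0.30, adjusted p = 0.00077), with no overlap. Of 19 tested genes of the extracellular matrix list, COL1A1 alone was called higher and 1 was called lower (10.5% in all, against 1.51% of all tested genes). The proteoglycan VCAN, outside that list, also rose. At an unadjusted p under 0.05, 6 members were higher and 2 lower. Without the 2 libraries that stood apart 2 were called higher, against 136 of all 11039 tested genes. COL6A1 fell (-0.69 ± 0.16, adjusted p = 0.032; 8 of 16 fits without a library, up to 0.0694 without siNC sgKEAP1-2 replicate 3, and 0.062 without the 3 libraries that stood apart). HSPG2 (0.45, adjusted p = 0.081) and SPARC (0.42, adjusted p = 0.15) did not pass, and FN1, at median levels of 9555 and 8981 CPM, had -0.11 (adjusted p = 0.52). The fibroblast markers COL1A2, COL3A1, LUM and DCN were absent from the table and PDGFRB had medians of 6.42 and 2.13 CPM (-1.01, adjusted p = 0.13).

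EMP1 (1.58 ± 0.36), the antisense transcript HECW2-AS1 (1.46), the adhesion protein FLRT3 (1.37), the metalloprotease ADAM19 (1.36), the monocarboxylate transporter SLC16A4 (1.25), CCND2 (1.24), GLIPR1 (0.93), the proteoglycan VCAN (0.89), the co-receptor NRP2 (0.84), TSPAN5 (0.84) and the NRF2-related factor NFE2L3 (0.84) completed the 12 largest rises among genes with a mean of at least 10 counts, with adjusted p between 0.0015 and 0.032. SEMA3C, below that mean and named after its value was seen, had 1.83 (adjusted p = 0.020), from 0 to 5 reads under siNC and 4 to 12 after knockdown. VCAN had 37.6, 40.9 and 53.1 CPM under siNC and 45.8, 81.6 and 112 CPM after knockdown, and the groups overlapped at the lowest knockdown library. NFE2L3 had 9.15, 11.3 and 18.1 CPM against 18.2, 20.9 and 35.9 CPM, without overlap. CCND2, a D-type cyclin, had 10.6, 20.9 and 26.5 CPM against 27.8, 39.7 and 148 CPM, and its 148 CPM was in the library with plasma cell transcripts. Without that library its change was 0.99 (adjusted p = 0.0040) and that of EMP1 was 1.37 (adjusted p = 0.052). The calls of EMP1, GLIPR1, NRP2, TSPAN5 and CCND2 held in 7, 6, 7, 12 and 15 of 16 fits without a library, with adjusted p up to 0.091, 0.0821, 0.0846, 0.0585 and 0.0561, in each case without siNC sgKEAP1-2 replicate 2 or 3. Of 20 tested p53 targets 1 rose (5%, against 0.466% of all tested genes). This was SESN1, an inhibitor of mTORC1 (17.0, 21.3 and 26.8 CPM against 25.1, 31.9 and 37.4 CPM; 0.62 ± 0.12, adjusted p = 0.011). CDKN1A had 0.34 (adjusted p = 0.067).

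**Figure D4:**
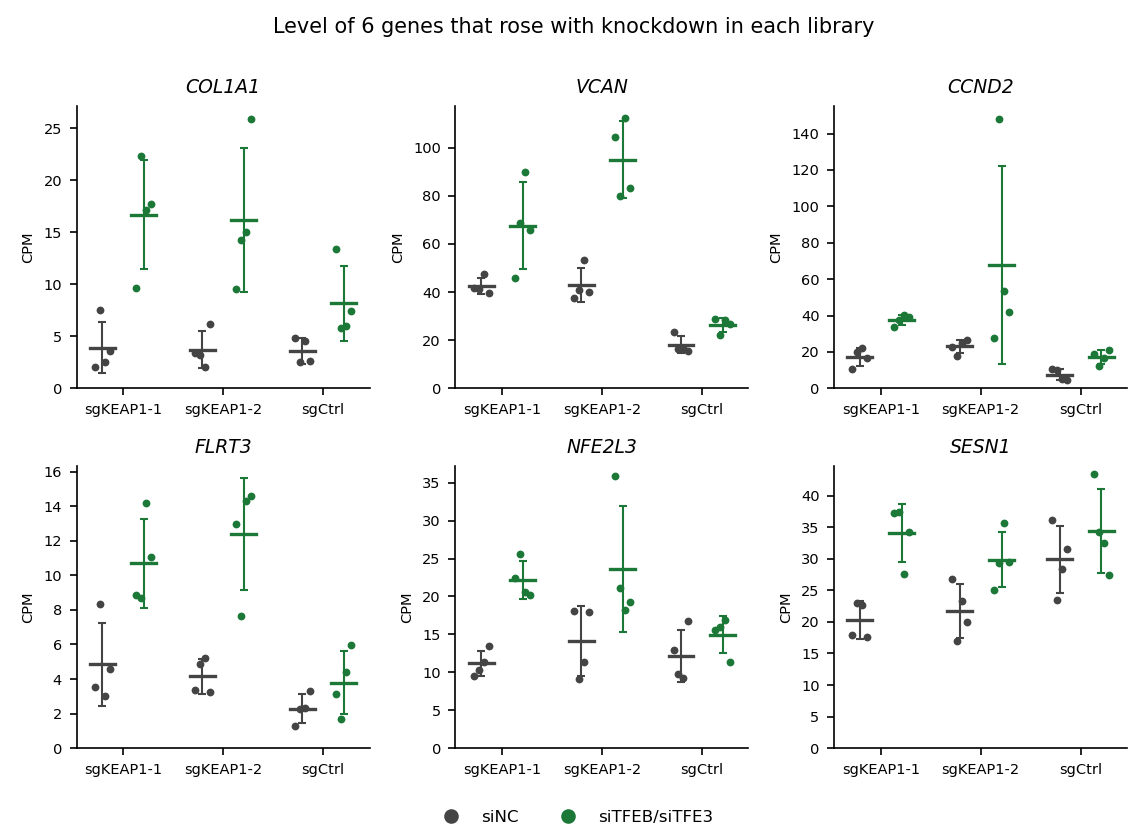
Level in CPM (vertical, from 0) of 6 genes that rose, in each library by guide (horizontal), under siNC (grey) and siTFEB/siTFE3 (green); bars are the mean and SD of 4 libraries. COL1A1 and NFE2L3 separate the siRNAs with both KEAP1 guides, and the CCND2 point at 148 CPM is siTFEB/siTFE3 sgKEAP1-2 replicate 2.

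Each guide was also taken alone, which left 4 libraries against 4. With sgKEAP1-1, 4 genes were called (0.0365%; 789 genes at an unadjusted p under 0.05), and with sgKEAP1-2, 17 (0.155%; 1035 genes). With the replicate block these counts were 10 and 33. These pairs of groups share no library, although both enter the pooled comparison. Of the 165 genes, 148 were called with neither guide alone. All 165 had the same sign with both and 153 had an unadjusted p under 0.05 with both. Because the 165 were chosen by the pooled fit of these same libraries, such agreement follows largely from the choice and is no test of replication between guides. FLCN changed by -0.78 with sgKEAP1-1 and -1.27 with sgKEAP1-2, LIPA by -0.83 and -0.89, COL1A1 by 2.22 and 2.14 and VCAN by 0.63 and 1.14. No gene differed between the guides in the limma-voom interaction (smallest adjusted p = 0.943; 405 genes at an unadjusted p under 0.05), nor in edgeR or DESeq2 (400 and 395 genes). This does not show equal effects: for TFEB the difference of the guides was 0.48 ± 0.48.

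The called genes were then looked up in the 8 sgCtrl libraries. These did not enter the fit of 16 libraries that called the genes, although the fits of all 24 libraries cited above included them. On their own these libraries gave 2 called genes of 10522 (0.019%; 525 at an unadjusted p under 0.05), TFE3 and CCDC117, and 18 with the replicate block. Of the 165 genes 152 were tested there, and 144 (94.7%) changed in the same direction, against 58% of all genes tested in both. An unadjusted p under 0.05 in the same direction was found for 66 of the 152 (43.4%), against 3.99% of all genes. The changes were smaller for 137 of the 152: genes lower in KEAP1-disrupted cells had a median of -0.49 there and -0.29 in sgCtrl cells, and genes higher there had 0.49 and 0.29. The members were chosen for passing a threshold in the former libraries, so the former values are not a test.

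**Figure D5:**
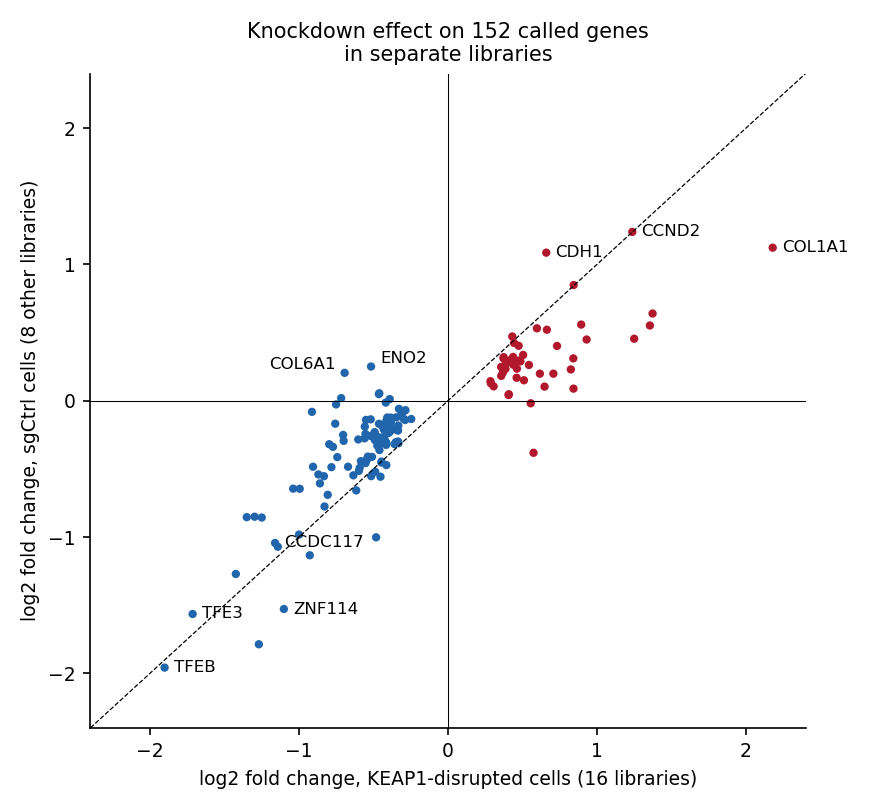
Knockdown log2 fold change of 152 called genes in KEAP1-disrupted cells (16 libraries, horizontal) against the change in sgCtrl cells (8 other libraries, vertical); blue genes were lower and red genes higher in the former, and the dashed line marks equal change. Of the points, 144 share a direction and 137 have the smaller absolute change in sgCtrl cells.

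TFEB fell by 1.96 and TFE3 by 1.56 on the log2 scale in sgCtrl cells, and by 1.90 and 1.71 in KEAP1-disrupted cells. FLCN had -0.65, LIPA -0.61, SQSTM1 -0.55, ASAH1 -0.41, CTSB -0.24, TPP1 -0.12 and CTSD -0.07 in sgCtrl cells, and of these FLCN, LIPA, SQSTM1, ASAH1 and CTSB had an unadjusted p under 0.05. In the interaction over all 24 libraries no gene differed between KEAP1-disrupted and sgCtrl cells (limma-voom, smallest adjusted p = 0.999; 349 genes at an unadjusted p under 0.05, and 366 and 365 with edgeR and DESeq2, which also called none). The named genes with the smallest unadjusted p for this difference were ENO2 (-0.52 against 0.25) and COL6A1 (-0.69 against 0.20), at 0.0049 and 0.014. COL1A1 rose by 2.18 in KEAP1-disrupted cells and had 1.12 in sgCtrl cells, and the interaction was 1.06 (unadjusted p = 0.065).

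The following called genes are outside the lists and were named after their values were seen, so they stand for no group. The urea cycle enzymes ASS1 (-0.74, adjusted p = 0.0067) and ASL (-0.39, adjusted p = 0.045) fell, as did the folate enzymes MTHFD1 (-0.44, adjusted p = 0.011) and ALDH1L1 (-0.45, adjusted p = 0.036). The fatty acid binding protein FABP1 had 315, 388 and 453 CPM under siNC and 153, 261 and 396 CPM after knockdown (-0.52, adjusted p = 0.036). HLF, a circadian transcription factor of the liver, had 346, 373 and 420 CPM against 203, 265 and 345 CPM, without overlap (-0.49, adjusted p = 0.0093). BRI3, a small membrane protein, had 123, 154 and 168 CPM against 76.1, 87.7 and 98.1 CPM (-0.77 ± 0.08, adjusted p = 2.3e-05). MTHFD1 and BRI3 did not overlap either. ASS1, MTHFD1, HLF and BRI3 were called in all 16 fits without a library, but ALDH1L1 and FABP1 in 7 each and ASL in 2 (adjusted p up to 0.081, 0.0915 and 0.11, without siNC sgKEAP1-1 replicate 3 for the first and siNC sgKEAP1-2 replicate 3 for the others). BIRC7 had the lowest fitted value of any called gene (-2.42), from no more than 19 reads in any siNC library and 0 reads in the lowest knockdown library, and was called in 14 of 16 fits without a library (adjusted p up to 0.0691, without siTFEB/siTFE3 sgKEAP1-1 replicate 3).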

How the data were processed

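QuantSeq 3′ libraries of HepG2 cells were compared. The deposited values are whole-number counts per gene, made by the authors per the labels with cutadapt 1.16, STAR 2.7.5b and featureCounts 1.6.3. The submitters' processing notes name build hg38 whereas the study's methods name hg19. Coordinates printed here are those of the RefSeq promoter windows (GRCh38.p14) only. The strand setting was not given in the sources used here, so antisense transcripts such as HECW2-AS1 are uncertain.

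Of 13446 rows, 1414 without an Entrez ID (1.35% to 2.57% of reads) were left out of library sizes and tests, 43 rows sharing 20 IDs were summed, and 160 IDs with identical counts were kept as 78 features. Symbols were matched for 11980 of 12009 IDs. The 16 KEAP1-guide libraries were filtered with edgeR 4.0.16 (filterByExpr), scaled by TMM and fitted with limma-voom (limma 3.58.1, R 4.3.3) with guide and siRNA as additive terms, and p-values were adjusted by Benjamini-Hochberg over all tested genes at 0.05. Separate terms per guide, an interaction of guide and siRNA, a fit of the 8 sgCtrl libraries and an interaction over 24 libraries were also made. Levels are CPM with TMM factors of the 24 libraries. Alternatives were size factors of the RLE kind, other filters, edgeR quasi-likelihood, DESeq2 1.42.0, quality weights, a replicate block, all 24 libraries and leaving out libraries. The code was tested on simulated data.

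Named genes were the MiT/TFE factors, KEAP1, NFE2L2, FLCN, FNIP1 and FNIP2, the 12 largest changes in each direction with a mean of at least 10 counts, and every called member of the 24 gene lists. Genes outside this rule are stated to be so, or are given as uncalled members of a list. Members and lists were chosen with earlier results of these data known. Replicates differed from each other by more than counting noise (chi-square per degree of freedom 3.59 to 35.0). In the labels each of the 4 replicate numbers goes with 1 prefix of its own, written like a day and month and shared by all 6 groups. The labels do not explain the prefix or say that replicates were separate cultures, so the p-values may measure technical spread only. If it is a day, same-numbered libraries are matched, so counts from the blocked fit are printed where they differ by over 1.5 times. Deviations from the group means of same-numbered libraries had correlations of -0.046 to 0.19, over 0.1 in 3 of 8 pairs.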

Additional observations from a re-analysis of the deposited data

Results flagged for a closer look

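Each named gene was examined within each group of 4 libraries for 1 library far from the other 3, by Dixon's test at the 95% level. Of 196 gene-and-group pairs 9 passed, where chance gives about 5%, or 1 in 20 groups. The number that passed is thus no higher than chance gives, and the pairs below are listed as a description.

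In siTFEB/siTFE3 sgKEAP1-2 replicate 2, the library with plasma cell transcripts, ENO2 was at 46.3 CPM against 29.7 to 30.2 CPM in the other 3 libraries of its group, and MYO15B was at 0.984 CPM against 1.82 to 1.86 CPM. In replicate 1 of the same group NFE2L3 was at 35.9 CPM against 18.2 to 21.2 CPM, and in replicate 4 HECW2-AS1 was at 15.5 CPM against 6.40 to 7.95 CPM. MITF was at 2.95 CPM in replicate 3 of that group, against 0.246 to 0.619 CPM, and at 1.99 CPM in siTFEB/siTFE3 sgKEAP1-1 replicate 4, against 0.276 to 0.535 CPM. In that last library SQSTM1 was at 450 CPM against 383 to 391 CPM, and RAB7A was at 142 CPM in replicate 1 of its group against 154 to 156 CPM. NDRG4 was at 19.9 CPM in siNC sgKEAP1-1 replicate 1 against 32.8 to 34.7 CPM.

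The same test picked out siTFEB/siTFE3 sgKEAP1-2 replicate 1 for its share of reads in rows without a gene ID, 2.57% against 1.41% to 1.58%, and for its share in MTRNR2L8, 4.42% against 0.572% to 0.761%. Among the rows without a gene ID, which entered no comparison above, 817 were tested and 2 passed the threshold with knockdown (0.245%), 1 higher and 1 lower.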

How the results depend on the processing

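The pooled count of 165 called genes was 161 with RLE size factors, 158 without a filter, 160 at a mean of at least 20 counts, 166 with edgeR, 228 with the replicate block and 200 with all 24 libraries. It was 298 with DESeq2, 413 with quality weights, 450 without the libraries numbered 1, 27 when a change of 1 or more on the log2 scale was also asked for, and, in alternatives chosen after seeing the data, 335 without the 2 libraries that stood apart and 266 without 3. Leaving out 1 library gave 96 to 216, with 96, 101, 105, 104 and 109 without siNC sgKEAP1-2 replicates 3 and 2 and siTFEB/siTFE3 sgKEAP1-1 replicate 2, sgKEAP1-1 replicate 3 and sgKEAP1-2 replicate 2. The lower share was 69.1%, and 59.4% to 74.3% elsewhere. For sgKEAP1-1 (4 genes) DESeq2 gave 48, the block 10 and leaving out 1 library 1 to 12. For sgKEAP1-2 (17) these were 91, 33 and 7 to 42, and for sgCtrl (2) 15, 18 and 1 to 3. The lysosomal lists (7) had 12 with quality weights, 13 without the libraries numbered 1 and 4 to 9 leaving out 1, the feedback targets (5) 8, 8 and 3 to 6. Over all tested genes these fits called 413, 450 and 96 to 216, against 165, so the higher list counts came with higher totals. Without the 2 libraries 129 of 10948 tested genes did not overlap, against 51 with them. Groups of fewer libraries separate more easily by chance, so the counts are not directly comparable. The causes were not tested. Neither interaction called a gene under any alternative run. NFE2L2, not called, turned negative with quality weights (-0.032), without the libraries numbered 1 (-0.074), and without the 2 (-0.063) or 3 (-0.061) libraries, and leaving out 1 library gave -0.011 (without siTFEB/siTFE3 sgKEAP1-2 replicate 1) to 0.104. KEAP1, also not called, had -0.0085 to 0.0556 leaving out 1 library, and -0.0037 without siTFEB/siTFE3 sgKEAP1-1 replicate 4. Outside single-library fits, 10 of 523 named-gene values lost their call (TTR, RBP4, NR0B2 and SPN among them with all 24 libraries, adjusted p 0.19, 0.067, 0.071 and 0.065). The replicate block shared 158 genes with the 165, ended no call of a named gene, and 5 of the 8 same-numbered pairs correlated best with each other. At these depths low genes such as MITF could not be tested.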

Other observations

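The called genes below lie outside the lists and were picked once their values were known, so they show no direction for any group. EPCAM, an epithelial adhesion molecule, had 110, 116 and 136 CPM under siNC (lowest, median and highest of 8 libraries) and 136, 165 and 202 CPM after knockdown, without overlap (log2 fold change 0.45 ± 0.09, adjusted p = 0.018). CDH1, E-cadherin, had 29.5, 50.8 and 58.2 CPM against 49.8, 78.9 and 95.9 CPM (0.66 ± 0.14, adjusted p = 0.019), and 1.09 in sgCtrl cells (unadjusted p = 9.6e-05). Both were called in all 16 fits that left out a library. The desmosomal cadherins DSG2 (0.41) and DSC2 (0.37) and the keratin KRT19 (0.39) also rose, but were called in 10, 3 and 4 of those fits. The cadherin family member CDHR2 fell (-0.75 ± 0.17, adjusted p = 0.027; 12.4 to 6.61 CPM at the median) and was called in 10. Among secreted ligands AREG, which signals through the EGF receptor, had 59.0, 88.3 and 110 CPM against 97.8, 141 and 178 CPM (0.65 ± 0.13, adjusted p = 0.012) and 0.10 in sgCtrl cells, a difference that no interaction called.

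Other single genes chosen in the same way fell. CLTA, a clathrin light chain, had 196, 217 and 263 CPM under siNC and 142, 167 and 185 CPM after knockdown, without overlap (-0.42 ± 0.07, adjusted p = 0.0044), and the adaptor subunit AP5Z1 fell by 0.42 (adjusted p = 0.015). GNPDA1, which deaminates glucosamine 6-phosphate, had 165, 184 and 224 CPM against 110, 137 and 146 CPM (-0.46 ± 0.07, adjusted p = 0.0022). The receptor ERBB3 had 172, 192 and 207 CPM against 124, 136 and 160 CPM (-0.48 ± 0.06, adjusted p = 0.00049), also without overlap. PRKAR1A, a regulatory subunit of protein kinase A, fell by 0.58 (adjusted p = 0.0089), and NUPR1, a stress-response regulator, by 0.81 (adjusted p = 0.0025). All 6 were called in every fit that left out a library.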
